A study of Mus musculus with 16 samples.

Results

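The genes examined were those of the extracellular proteases that cut matrix and shed cell-surface proteins, and of their tissue inhibitors, in pieces of mouse fallopian tube kept in culture. Members were chosen by symbol alone: every gene of the deposited table called Mmp, Adamts or Adam followed by a number, with an optional letter, and Timp1 to Timp4. They came to 66 genes with 96 probes, out of 18138 genes with 25697 probes in the whole table, and comprised 22 Mmp, 14 Adamts, 26 Adam and 4 Timp genes. A gene with more than 1 probe was represented by its brightest, judged by mean signal over all arrays.

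RNA was measured on 16 Illumina MouseRef-8 v2 arrays, 1 colour and 1 sample per array, in 4 groups of 4: control for 20 min, progesterone for 20 min, control for 2 h and progesterone for 2 h. Every sample was a pool of 6 tubes from female C57BL/6N mice of 3.5 to 5 weeks, immature and given no hormones, whose tubes had been opened, cut up and placed in a handling medium. The progesterone groups received 100 nmol/L progesterone in 0.01% ethanol, and the controls received the same ethanol alone. A control and a progesterone sample with the same code formed a pair, with codes 27n, 26n, 12n and 22ob at 20 min and 6d, 19n, 30o and 15o at 2 h, so that no pool was measured at both times. No array of tissue taken before incubation was analysed here, and the time comparison is between different pools, so incubation time and any difference between the sets of pools, chips or days cannot be told apart. The p-values measure the spread between these pools only.

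Matrix metalloproteinases (MMPs) are zinc enzymes, secreted or anchored in the membrane, that cut collagens, proteoglycans and other matrix proteins. Most are made as inactive precursors. The tissue inhibitors of metalloproteinases (TIMPs) bind and block active MMPs, and Timp3 also blocks some enzymes of the other families. ADAMTS proteins are secreted proteases with thrombospondin motifs; some cut aggrecan and versican and others trim procollagens. ADAMs are membrane proteins, of which Adam10 and Adam17 release growth factors and cytokines from the cell surface, while many other ADAMs are known mainly from testis and sperm. In the ovary, Adamts1 and Adam8 are known for their dependence on the progesterone receptor, and the question put to these data was whether members of the families responded to progesterone in the tube.

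A probe was taken as detected on an array where its detection p-value, the share of the array's negative control probes that were brighter, was under 0.05. Of the 66 members, 23 (34.8%) were detected on all 16 arrays, 26 on some and 17 on none, while 46.7% of all genes of the table were detected on all 16. All 4 Timps were detected everywhere, against 9 of 22 Mmp, 7 of 26 Adam and 3 of 14 Adamts genes. The Mmp genes on all 16 arrays were Mmp1a, Mmp2, Mmp9, Mmp10, Mmp13, Mmp14, Mmp15, Mmp17 and Mmp23. Mmp2 and Mmp9 encode the gelatinases and Mmp14 the membrane enzyme that activates pro-Mmp2. Mmp9 passed only narrowly, with a highest detection p-value of 0.0489. Adamts1, Adamts2 and Adamts4 were the Adamts genes on all arrays. Adamts1 and Adamts4 cut aggrecan and versican, and Adamts2 is a procollagen N-proteinase. Of the Adam genes, Adam5, Adam8, Adam9, Adam15, Adam17, Adam22 and Adam28 were on all arrays.

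The members on no array were Mmp1b, Mmp7, Mmp20, Mmp21 and Mmp27, then Adamts17, Adamts18 and Adamts20, and Adam2, Adam3, Adam6, Adam7, Adam10, Adam21, Adam25, Adam29 and Adam39. Adam2 and Adam3 are sperm surface proteins, Mmp20 is the protease of tooth enamel, and Mmp7 (matrilysin) is an epithelial MMP. Adam10 was represented by 1 probe, which was not above background on any array, so this table gives no level for that sheddase. Adamts5 and Adamts9 had no row in the table.

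**Figure D1:**
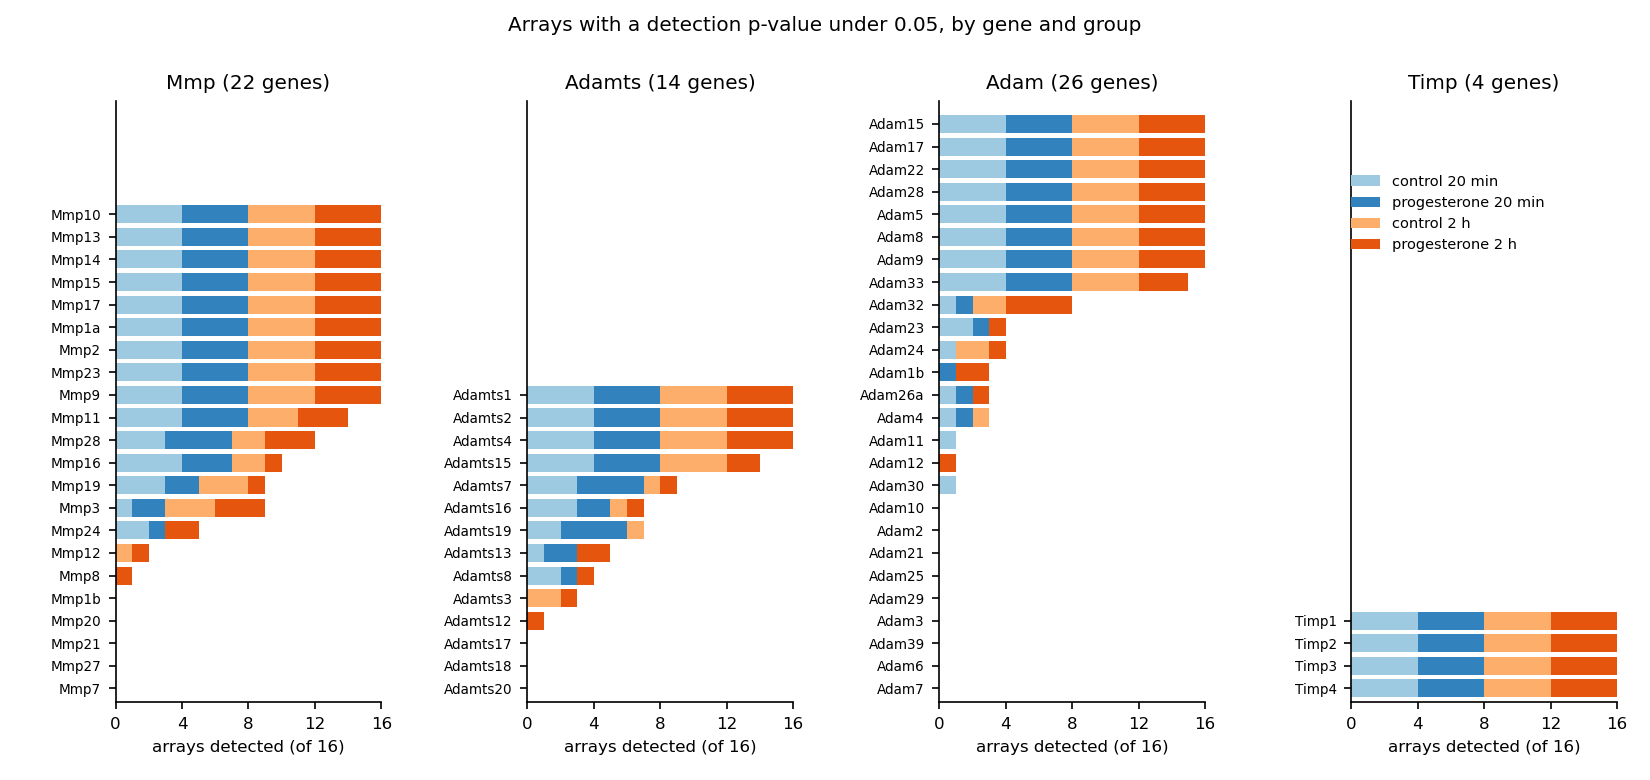
Bars show, for each of the 66 members by family, on how many of the 16 arrays (horizontal axis) its probe had a detection p-value under 0.05, split into the 4 groups of 4 arrays. All 4 Timps reach 16 arrays, while 17 genes, 9 of them Adam genes, have no bar.

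For the tests, signals were quantile-normalized and put on a log2 scale, called log2 signal here, and a probe was kept if its signal was above the median of the negative controls on at least 13 arrays. This kept 44 of the 66 members (16 Mmp, 9 Adamts, 15 Adam and 4 Timp) among 16848 probes. Before normalization, the lowest correlation of log2 signal between any 2 arrays was 0.968, and between 13222 and 14267 probes were detected per array. Brightness differed, with a median signal from 116.5 in a control array of 20 min to 160.5 in a progesterone array of 20 min. The tissue label was borne out by 8 of 8 cilia markers and 7 of 8 smooth muscle markers detected on all arrays. No marker of fat, ovary or skeletal muscle was detected on all arrays, and Plin1, Fabp4, Star, Amh, Cyp19a1 and Ckm were on none.

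The clear difference among the members lay between the times. Over both treatments, with the control and the progesterone array of a pair averaged first (4 pairs of 2 h against 4 of 20 min), 4 members rose and 2 fell at an adjusted p of at most 0.05. That is 6 of 44 (13.6%), below the 19.3% of all tested probes that passed (9.06% higher and 10.3% lower), so the families as a whole did not stand out. The number of falls depended on the scaling: 4 rose and 14 fell without normalization, where the median of all probes was itself at -0.20 on the log2 scale, and 4 rose and 8 fell after median scaling. Adamts4, Timp1 and Mmp13 rose by 3.71-fold to 4.97-fold, Mmp3 rose by a smaller amount, and Mmp11 and Adamts15 fell slightly.

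Timp1, the secreted inhibitor of most MMPs, had log2 signals of 8.12, 8.29, 7.95 and 7.97 in the controls of 20 min (pairs 27n, 26n, 12n and 22ob) and of 8.28, 8.60, 7.81 and 8.19 in the progesterone samples of the same pairs. At 2 h it had 10.53, 10.38, 10.35 and 9.86 in the controls (pairs 6d, 19n, 30o and 15o) and 10.31, 9.94, 10.00 and 10.08 with progesterone. Every array of 2 h was higher than every array of 20 min. The log2 fold change was 2.03 (SE 0.13, 95% interval 1.74 to 2.32), or 4.09-fold, with an adjusted p of 1.40e-05 by limma. A second Timp1 probe gave 2.05.

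Mmp13, collagenase-3, which cuts fibrillar collagens, was close to the dim end at 20 min, with log2 signals of 7.12, 7.26, 7.21 and 7.31 in the controls and 7.23, 7.25, 7.26 and 7.44 with progesterone. At 2 h it had 9.15, 10.57, 9.52 and 9.42 in the controls and 9.41, 9.78, 9.67 and 9.06 with progesterone. The groups of the 2 times did not overlap, and the spread within a group was far wider at 2 h. The log2 fold change was 2.31 (SE 0.18, 95% interval 1.90 to 2.72), or 4.97-fold (adjusted p 5.25e-05, limma). Because the 20 min signals lay near background, the size depends on how background is treated: after normexp correction the log2 fold change was 3.57. The other Mmp13 probes were dimmer. A probe detected on 7 arrays gave 0.34 (adjusted p 0.00382) and a probe detected on 0 arrays gave 0.00, so the size rests on the brightest probe.

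Adamts4, an aggrecanase, had log2 signals of 8.07, 9.31, 8.18 and 8.41 in the controls of 20 min and 8.35, 9.05, 7.99 and 8.17 with progesterone. Pair 26n was the high pair in both treatments. At 2 h the values were 10.98, 10.26, 10.17 and 10.07 in the controls and 10.66, 9.87, 10.08 and 10.60 with progesterone, all above the highest value of 20 min. The log2 fold change was 1.89 (SE 0.25, 95% interval 1.33 to 2.46), or 3.71-fold, with an adjusted p of 0.00100 by limma.

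Mmp3, stromelysin-1, a broad protease that also activates other MMPs, was detected on 3 of 8 arrays at 20 min and 6 of 8 at 2 h. Its log2 signals ran from 6.77 to 7.14 in the 8 arrays of 20 min. At 2 h the controls had 7.81, 7.64, 7.51 and 6.90 and the progesterone samples 7.85, 6.90, 7.37 and 7.31. The control of 15o and the progesterone sample of 19n stayed within the range of 20 min, while the other 6 arrays lay above it. The log2 fold change was 0.48 (SE 0.14, adjusted p 0.0417, limma), and 1.27 after normexp correction. The call was lost when pair 27n, 26n, 12n, 22ob, 19n or 30o was left out, with adjusted p from 0.0181 to 0.0970 over the 8 omissions. The other 2 Mmp3 probes gave 0.33 and 0.18 and were not called.

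Mmp11, stromelysin-3, an MMP that leaves the cell already activated, fell. It had log2 signals of 7.53, 7.52, 7.28 and 7.34 in the controls of 20 min and 7.46, 7.55, 7.33 and 7.47 with progesterone. At 2 h the controls had 7.06, 7.07, 6.97 and 7.13 and the progesterone samples 7.23, 6.89, 7.04 and 7.13, all below the lowest value of 20 min. The log2 fold change was -0.37 (SE 0.07, adjusted p 0.00445, limma), and -1.05 after normexp correction.

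Adamts15, a versican-cutting protease, fell by 0.21 on the log2 scale (SE 0.06, adjusted p 0.0403, limma), and by 0.62 after normexp correction. Its pair means did not overlap between the times, but single arrays did: the controls had 7.38, 7.48, 7.05 and 7.24 at 20 min and 7.18, 7.02, 7.21 and 7.28 at 2 h. With progesterone they were 7.22, 7.37, 7.35 and 7.29 at 20 min and 7.07, 6.96, 7.04 and 6.95 at 2 h. Leaving out pair 27n, 26n, 22ob, 19n, 30o or 15o lost the call, with adjusted p from 0.0335 to 0.101 over the 8 omissions.

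**Figure D2:**
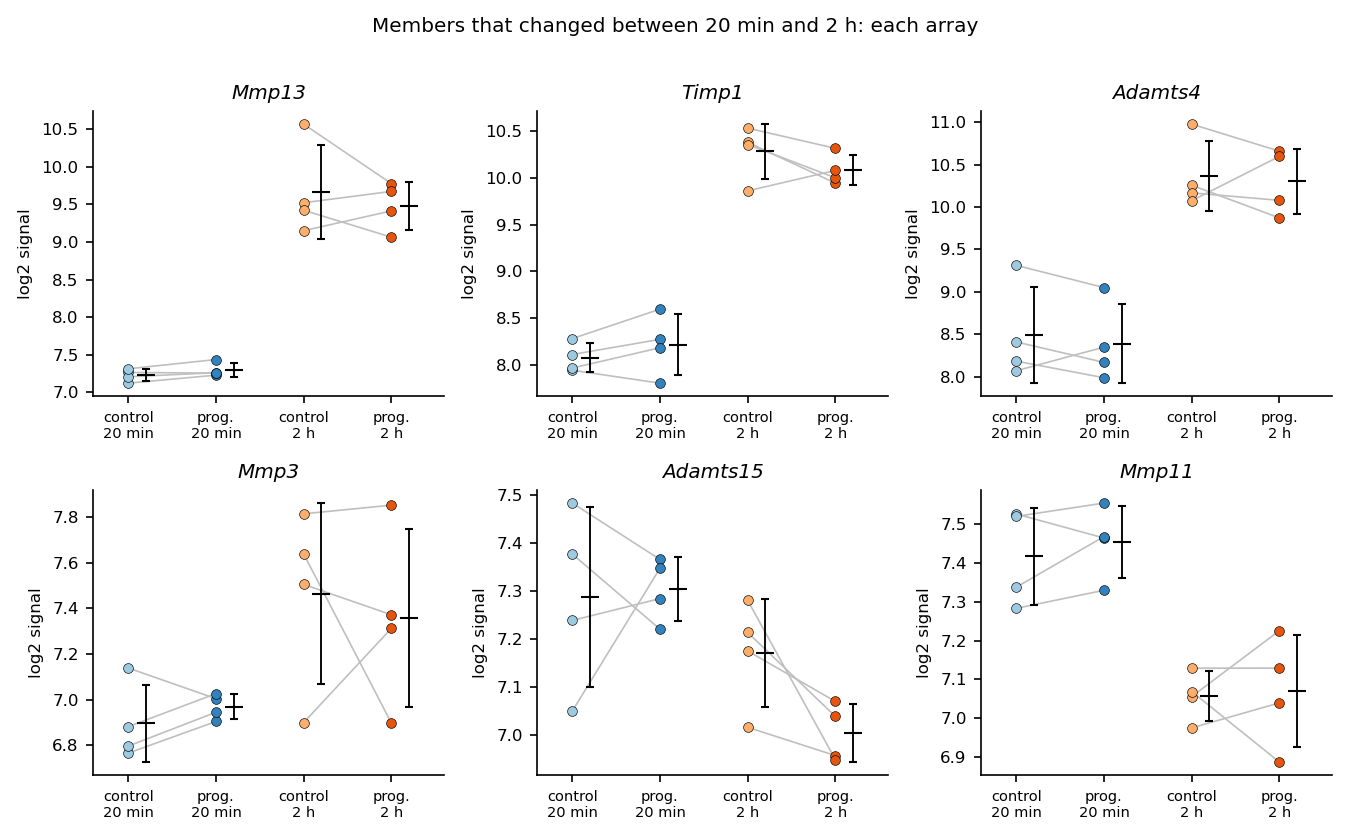
Each panel shows the log2 signal (vertical axis) of a member that passed the test between the times, in the 4 groups on the horizontal axis. Points are arrays, grey lines join the control and the progesterone sample of a pair, and black bars give the mean and SD of the 4 arrays. Timp1, Mmp13 and Adamts4 are separated by time with no overlap, whereas the lines within a time run in both directions.

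Timp1, Mmp13, Adamts4 and Mmp11 also passed within each treatment, whereas Mmp3 passed in neither and Adamts15 only with progesterone. Among controls, 3 members rose and 1 fell, while 11.3% of all probes passed (6.01% higher and 5.33% lower): Timp1 by 2.20, Mmp13 by 2.44 and Adamts4 by 1.87 on the log2 scale, and Mmp11 with -0.36. Among progesterone samples, 3 rose and 2 fell, while 15% of all probes passed (7.19% higher and 7.79% lower): Mmp13 by 2.19, Timp1 by 1.86 and Adamts4 by 1.91, with Mmp11 at -0.38 and Adamts15 at -0.30. Mmp3 had 0.57 in controls (adjusted p 0.0741) and 0.39 with progesterone (adjusted p 0.147), and Adamts15 had -0.12 in controls (adjusted p 0.535), all by limma. The 2 sets of arrays share no sample, though each progesterone sample was paired with a control.

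The remaining 38 tested members did not pass. Timp3, which binds to the matrix, and Timp2, which takes part in activating pro-Mmp2, had the largest negative values, a log2 fold change of -0.86 (95% interval -1.56 to -0.15, adjusted p 0.0885) and -0.61 (-1.10 to -0.11, adjusted p 0.0882). The Timp3 log2 signals were 11.94, 12.26, 11.26 and 11.90 in the controls of 20 min and 12.20, 11.24, 11.02 and 9.73 in those of 2 h. The spread of the 2 h controls (SD 1.02) was larger than the difference. Adamts2 had -0.50 (adjusted p 0.0877), Mmp14 -0.38 (0.119), Mmp2 -0.39 (0.429), Mmp9 -0.35 (0.195) and Adam17 -0.21 (0.104). On the positive side, Mmp10 (stromelysin-2) had 0.42 (adjusted p 0.144) and Adam9 0.27 (0.0751). Timp4 (0.09, adjusted p 0.669), Adamts1 (-0.08) and Adam8 (0.11) lay near 0, and these 3 changed sign under other scalings or without 1 pair. Of the 4 inhibitors, Timp1 was thus the one that rose, and the other 3 did not pass.

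**Figure D3:**
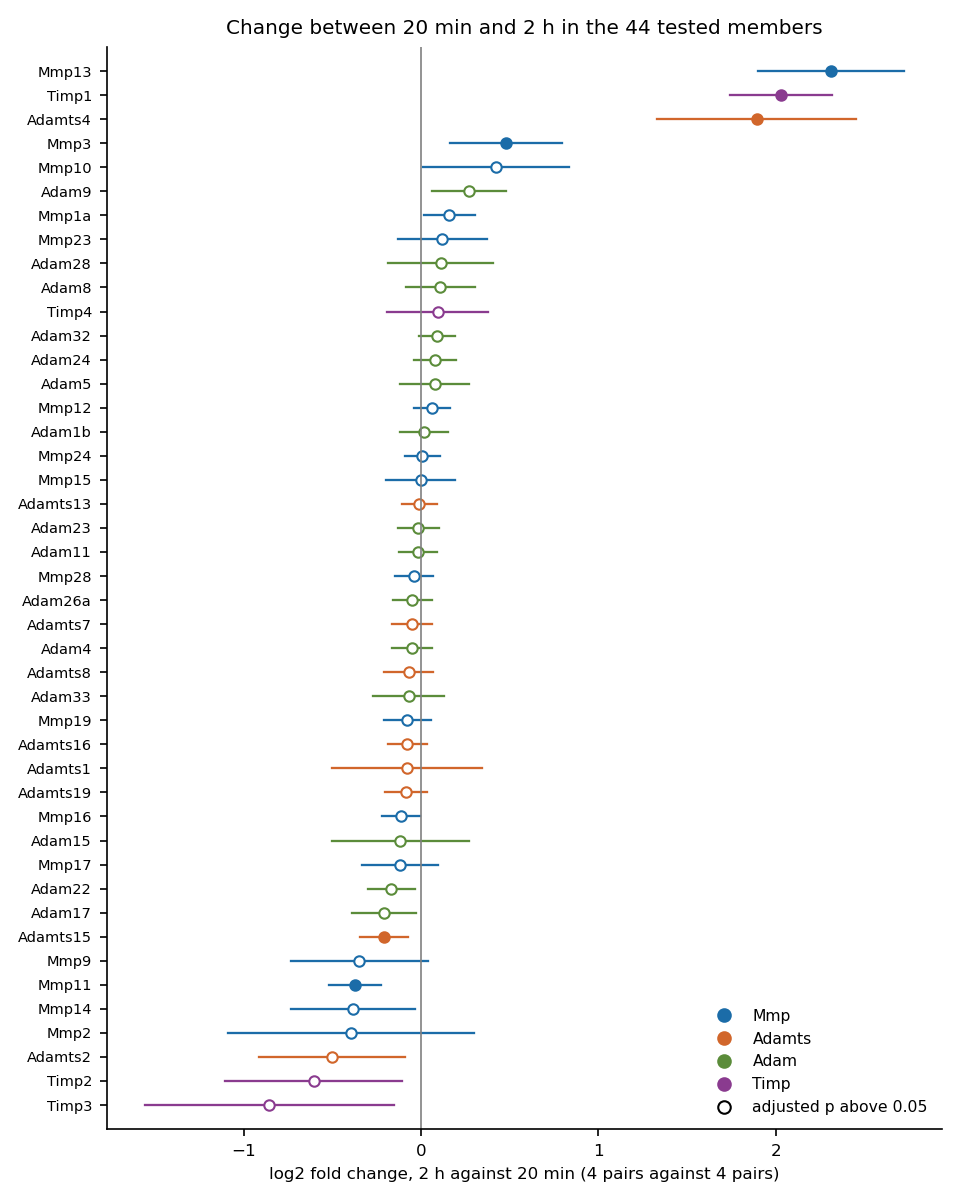
Points give the log2 fold change of 2 h against 20 min for each of the 44 tested members, with the 95% interval as a line and the family as colour. Filled points passed an adjusted p of at most 0.05. Timp1 (2.03), Mmp13 (2.31) and Adamts4 (1.89) stand far to the right of the other 41, and Timp3 (-0.86) has the lowest value and a wide interval.

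Marker scores of several cell types differed between arrays, and some members were high or low in the same arrays. The fibroblast score, the mean log2 signal of 6 fibroblast markers less each marker's overall mean, ran from -0.28 to 0.89 in the 8 arrays of 20 min and from -1.45 to 0.35 in those of 2 h. All 6 markers had lower means at 2 h and 1 passed (Dcn, -0.67, decorin, a collagen-binding proteoglycan). The smooth muscle score ran from -0.30 to 0.54 at 20 min and from -1.43 to 0.58 at 2 h, and 2 of 8 markers fell (Acta2 and Lmod1). The lowest Timp3 value of all, 9.73, was in the control of 15o, the array with the lowest fibroblast and smooth muscle scores, and the highest Timp3 and Timp2 values among the 2 h controls (12.20 and 11.15) were in 6d, whose scores were the highest of that group. Without pair 6d, Timp3 (-1.20, adjusted p 0.000957), Timp2 (-0.78, 0.0186) and Mmp9 (-0.52, 0.0145) were also called lower, as was Adamts2, and Timp2 passed without pair 12n too (-0.76, 0.0414). Over the 8 omissions of a pair, the adjusted p by limma reached 0.204 for Timp3, 0.209 for Timp2 and 0.387 for Mmp9. The secretory epithelium score was -0.32 to -0.08 at 20 min and 0.09 to 0.31 at 2 h, with no overlap, and Krt8, Krt18 and Cdh1 rose (3 of 6 markers). These 3 genes are expressed by epithelia in general. Over the 6 secretory markers, 4 had positive and 2 negative values, the lowest -0.25. Both negative ones were among Ovgp1, Pax8 and Wfdc2, none of which passed. Of the 8 markers of ciliated epithelium, 0 passed by limma, 1 had an unadjusted p under 0.05, 4 had positive and 4 negative values, and the median was 0.03. Of the leukocyte markers, Cd68 rose by 0.70, 1 of 6 tested, and Ptprc and Itgam were detected on no array. The fat score, from Adipoq, Cfd and Lep, was uneven: it was 1.04 in the progesterone sample of 15o at 2 h, 0.61 in that of 27n at 20 min and 0.47 in the control of 30o at 2 h, and lay between -0.35 and 0.08 in the other 13 arrays. The part of these cell types in the members' changes was not tested. In such bulk tissue, fewer cells of a type and less RNA per cell cannot be told apart.

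Of the rising genes, Mmp13 and Mmp3 belong to a cluster of MMP genes on mouse chromosome 9, where the reference places 10 members side by side among the Mmp genes, in the order Mmp13, Mmp12, Mmp1b, Mmp3, Mmp1a, Mmp10, Mmp8, Mmp27, Mmp20 and Mmp7. Collagenase and stromelysin promoters are known for a binding site of AP-1, the dimer of Jun and Fos proteins. The 250 bases before the start site are printed for Mmp13 and Mmp3, which rose, for their neighbour Mmp10, which did not pass, and for Timp1, which rose and lies elsewhere. They come from RefSeq on GRCm38.p6, run 5′ to 3′ along the gene's strand (the plus strand for all 4), and lie at chr9:7272264-7272513 (Mmp13), chr9:7445572-7445821 (Mmp3), chr9:7502092-7502341 (Mmp10) and chrX:20869916-20870165 (Timp1). Capitals mark matches to TGANTCA, the motif searched, which reads as the same motif on the opposite strand. It is wider than the AP-1 consensus, which has C or G in the middle (TGACTCA or TGAGTCA).
Mmp13: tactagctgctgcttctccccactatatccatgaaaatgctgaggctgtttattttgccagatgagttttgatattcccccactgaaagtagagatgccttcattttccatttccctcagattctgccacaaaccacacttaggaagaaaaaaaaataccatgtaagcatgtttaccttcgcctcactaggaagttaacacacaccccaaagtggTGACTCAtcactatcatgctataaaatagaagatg
Mmp3: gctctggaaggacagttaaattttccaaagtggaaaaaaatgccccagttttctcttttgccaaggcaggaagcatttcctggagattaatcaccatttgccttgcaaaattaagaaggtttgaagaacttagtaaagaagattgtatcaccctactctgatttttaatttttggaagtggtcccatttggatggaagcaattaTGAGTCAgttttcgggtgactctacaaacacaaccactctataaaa
Mmp10: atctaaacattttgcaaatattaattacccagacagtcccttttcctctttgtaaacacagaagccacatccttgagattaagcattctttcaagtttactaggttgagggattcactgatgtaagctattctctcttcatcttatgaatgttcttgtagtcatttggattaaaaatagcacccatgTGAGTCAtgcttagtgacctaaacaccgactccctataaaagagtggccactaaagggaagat
Timp1: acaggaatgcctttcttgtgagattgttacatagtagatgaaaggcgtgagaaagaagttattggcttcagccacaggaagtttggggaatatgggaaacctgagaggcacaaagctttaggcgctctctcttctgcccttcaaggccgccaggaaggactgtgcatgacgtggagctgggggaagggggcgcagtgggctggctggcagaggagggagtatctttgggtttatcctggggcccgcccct
The motif ended 28 bases before the start site in Mmp13, 39 in Mmp3 and 56 in Mmp10. No match lay in the Timp1 window.

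Over all promoters of the reference, 7.82% of 27025 genes had a match in the 250 bases before a start site. Of the 39 members with a promoter in the reference, 10 (25.6%) had a match: 8 of 17 Mmp genes, 2 of 10 Adam genes, 0 of 8 Adamts genes and 0 of 4 Timp genes. Adamts4, which rose, and Adamts15, which fell, had no promoter in the reference and were not searched. A match was held by 2 of the 4 members called over time that had a promoter, and by 3 of the 20 tested and not called. The 8 Mmp genes all lay in the cluster on chromosome 9, where 8 of the 10 held a match, and 0 of the other 7 Mmp genes did. The matches of Mmp20 and Adam25 read TGAATCA and so are not the consensus. With C or G alone in the middle, a search added after these matches were seen, 5.16% of all genes, 8 of the 39 members (20.5%), 7 of 17 Mmp genes and 1 of 10 Adam genes had a match. In the cluster, Mmp8 (detected on 1 array) and Mmp27 (on 0 arrays) had no match and were not tested for a change. The genes with a match differed in signal. Of the 8 genes with a match, Mmp13 and Mmp3 rose, Mmp10 (0.42), Mmp1a (0.16) and Mmp12 (0.06, detected on 2 arrays) were tested and did not pass, and Mmp1b, Mmp20 and Mmp7 were detected on no array. Neighbouring genes arose by duplication and are not independent, and a match to these letters is not a binding site.

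Partners of the members were read from lists of known activators, inhibitors, regulators, ligands and substrates, tested over both treatments in the same fit. The counts of these lists stand beside 9.06% of all tested probes called higher and 10.3% called lower in that fit. Convertases turn precursors into active enzyme, and their list also held other activators and the receptor gene Plaur. Of its 9 tested genes, 2 rose and 1 fell. Plaur, the urokinase receptor, rose by 2.27 on the log2 scale (4.82-fold, adjusted p 1.54e-07), Plau, urokinase itself, rose by 0.27 (adjusted p 0.00286), and Pcsk7, a proprotein convertase, had -0.32. Furin, which activates membrane MMPs, ADAMs and ADAMTSs, had -0.07 (adjusted p 0.686). Of 5 other inhibitors, Spint1, an inhibitor of membrane serine proteases, rose by 0.46. Reck, a membrane-bound inhibitor of MMPs, had -0.72 (adjusted p 0.0327, limma) and so fell. Unlike Timp1, Reck had pair means that overlapped between the times, and it did not pass among controls alone.

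Ligands known to be released by Adam10 or Adam17 gave 5 rises and 0 falls among 8 tested. Areg (amphiregulin) rose by 2.31 on the log2 scale (4.95-fold, adjusted p 4.01e-06) and Hbegf (heparin-binding EGF-like growth factor) by 2.20 (4.58-fold, adjusted p 1.15e-05), followed by the membrane chemokines Cxcl16 (0.93) and Cx3cl1 (0.51) and by Btc (0.23). Adam17 itself had -0.21 and did not pass, and of 7 regulators of the sheddases, Tspan33 rose by 0.63, Tspan14 had -0.31 and fell, and the other 5, with Rhbdf1 (-0.04) and Rhbdf2 (-0.02) among them, did not pass. The list median of the ligands was 0.37, beside -0.01 over all tested probes.

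AP-1 genes and early inducers ran the other way, with 1 rise and 5 falls among 8 tested. Jun (-1.14), Fos (-0.96), Junb (-0.83) and Fosb (-0.69), each a component of AP-1, were lower at 2 h than at 20 min. So was Egr1 (-1.05), another early response gene, while the cytokine Il6 rose by 1.56 (adjusted p 3.58e-05, limma). Jund, a further AP-1 component, and the cytokine Il1b had positive values and did not pass. Fosl1 and Fosl2 had no row in the table. The list median was -0.76. Of 14 proteoglycan and basement membrane substrates, 0 rose and 1 fell (Dcn), all 14 had negative values and the median was -0.44, and Nid1 (-0.85) and Bgn (-0.76) did not pass. Dcn is also a marker in the fibroblast score, so this list and that score are not independent. The part of fibroblast content in the substrates' values was not tested. Of 4 tested Adamts-like genes, 0 passed an adjusted p of at most 0.05 by limma and 2 had an unadjusted p under 0.05.

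**Figure D4:**
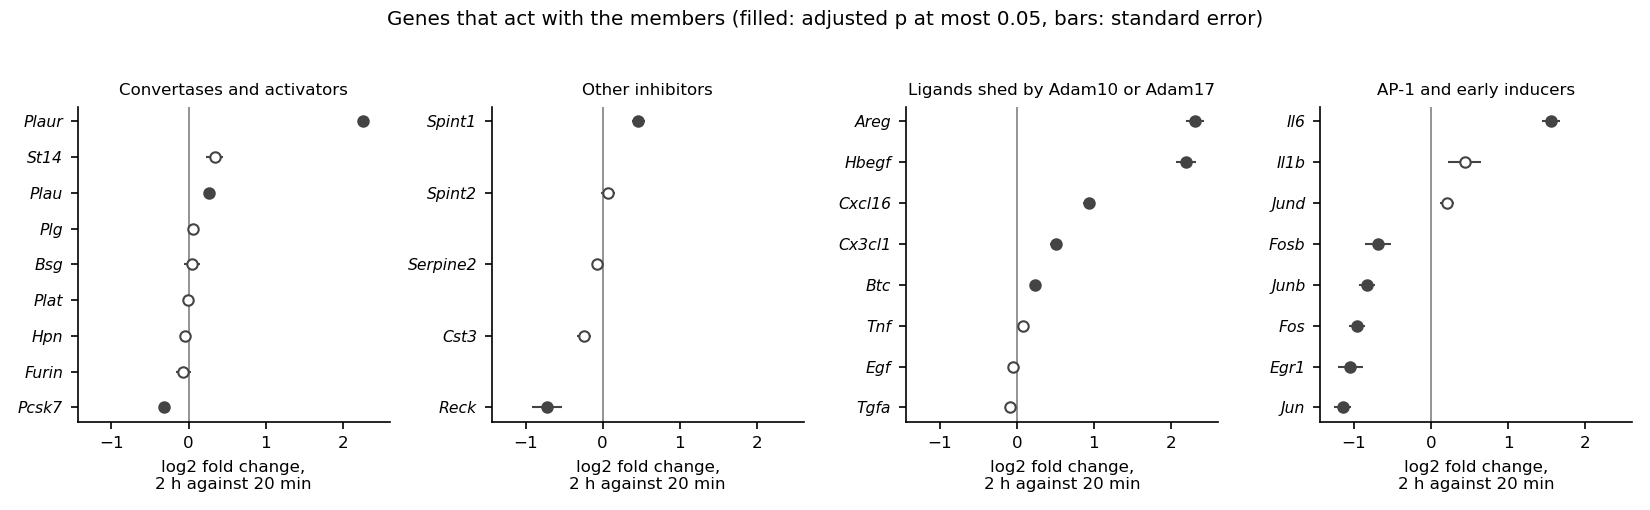
Points show the log2 fold change of 2 h against 20 min (horizontal axis), with the standard error. Genes are those tested from the lists of convertases and activators, other inhibitors, shed ligands, and AP-1 genes and early inducers. Filled points passed. Plaur (2.27), Areg (2.31) and Hbegf (2.20) lie about as far from 0 as Mmp13 did, and Jun (-1.14) and Fos (-0.96) lie to the left.

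Progesterone was compared with control within pairs, with an adjusted p of at most 0.20, as the study used a false discovery rate of that size. After 20 min, 0 of 44 members passed, and 0% of all probes did. The lowest adjusted p among members was 0.948 by limma, 2 members had an unadjusted p under 0.05 (5.03% of all probes did), and paired SAM, the study's test, also called 0 members. Mmp23, a membrane-anchored MMP known from reproductive tissues, had the smallest p. Its log2 signals were 9.78, 9.66, 9.79 and 9.51 in the controls and 10.34, 10.13, 9.92 and 9.70 with progesterone, higher in 4 of 4 pairs. The mean difference was 0.34 (SE 0.08, 95% interval 0.16 to 0.52, p 0.00190, adjusted p 0.948, limma), so it failed the correction over all probes.

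Adamts1 was the other member with an unadjusted p under 0.05 at 20 min. Its log2 signals were 7.98, 8.03, 7.27 and 7.44 in the controls and 8.20, 8.02, 7.58 and 7.62 with progesterone, higher in 3 of 4 pairs and level in 26n. The difference was 0.17 (95% interval 0.02 to 0.33, p 0.0280, adjusted p 0.948). At 2 h it was 0.09 (95% interval -0.14 to 0.32). Adam8, the other gene known to depend on the receptor in the ovary, had a difference of -0.14 at 20 min (95% interval -0.29 to 0.01) and of 0.09 at 2 h (-0.06 to 0.25), lower in 4 of 4 pairs at the first time and higher in 4 of 4 at the second. A second Adam8 probe, about as bright and also detected on all 16 arrays, had -0.02 at 20 min, lower in 2 of 4 pairs, and 0.13 at 2 h, higher in 4 of 4. The lower value at 20 min thus rests on 1 probe. As ratios of progesterone to control, the 95% intervals of Adamts1 were 1.02 to 1.25 at 20 min and 0.91 to 1.25 at 2 h, and those of Adam8 were 0.82 to 1.01 and 0.96 to 1.19.

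Of the 44 members, 4 were higher and 2 lower in all 4 pairs of 20 min, or 6 in all. Of all probes, 6.26% were higher and 6.57% lower in every pair, 12.8% together. The lowest p among these, after Mmp23 and Adam8, belonged to Mmp2 (0.14), Adamts19 (0.11), Mmp15 (0.08) and Mmp19 (-0.07), where values are log2 differences. The Mmp2 difference came largely from pair 12n, with 0.37, while the other pairs had 0.15, 0.04 and 0.01.

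After 2 h, again 0 of 44 members passed, beside 0.00594% of all probes (1 probe). No member had an unadjusted p under 0.05 by limma (2.59% of all probes did), the lowest adjusted p was 0.9997, and SAM called 0 members. The smallest p was that of Adamts15, with a difference of -0.17 (SE 0.07, 95% interval -0.34 to 0.00, p 0.0513), lower in 4 of 4 pairs, and next was Mmp19 with -0.14, also lower in 4 of 4. In all, 3 members were higher and 5 lower in every pair. Of all probes, 5.03% were higher and 5.36% lower in every pair, 10.4% together. The others named by this rule were Adam8 (0.09), Mmp24 (0.09), Adam28 (-0.09) and Mmp16 (-0.09). Mmp24 was detected on only 5 of 16 arrays, Mmp19 on 9 and Mmp16 on 10. Among the 4 progesterone arrays of 2 h, Adamts15 was detected on 2, and Mmp19 and Mmp16 on 1 each.

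The 4 inhibitors were followed in each pair. Timp1 differed by 0.16, 0.31, -0.14 and 0.22 on the log2 scale in the pairs of 20 min and by -0.22, -0.44, -0.35 and 0.22 in those of 2 h. A second Timp1 probe, also detected on all 16 arrays, differed by 0.32, -0.16, -0.06 and 0.06 and then by -0.29, -0.38, -0.25 and 0.36. Timp2 differed by -0.06, 0.14, 0.45 and 0.19 and then by 0.12, -0.52, -0.45 and 0.41. For Timp1 and Timp2, the sign varied among pairs at each time. Timp3 ranged from -0.19 to 0.44 at 20 min and from -1.13 to 1.66 at 2 h, and Timp4 from -0.64 to 0.55 and from -0.44 to 0.28. The mean of all 4 was positive at 20 min (0.04 to 0.18) and negative at 2 h (-0.20 to -0.03), but no Timp passed and none had the same sign in every pair. The widest Timp3 difference, 1.66, was in pair 15o, where the fibroblast score was -1.45 in the control and -0.32 with progesterone. In 19n, with -1.13, the score was -0.31 in the control and -0.90 with progesterone. In 30o, with -0.39, it was -0.30 and -0.62. Pair 6d went the other way, with a Timp3 difference of -0.27 and scores of 0.26 and 0.35. The smooth muscle score was -1.43 in the control and -0.14 with progesterone in 15o, and 0.03 and -0.95 in 19n. In 30o it was -0.15 and -0.52, and in 6d 0.58 and 0.50. The fat score of pair 15o was 0.00 in the control and 1.04 with progesterone. The part of the fibroblast, smooth muscle and fat content was not tested.

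None of the members that rose with time passed for progesterone at 2 h. The difference was -0.20 for Timp1 (95% interval -0.45 to 0.05), -0.18 for Mmp13 (-0.55 to 0.18) and -0.07 for Adamts4 (-0.39 to 0.25), on the log2 scale. Mmp3 had -0.11 (-0.47 to 0.26), with pairs from -0.74 to 0.41. The gelatinases were similar, with -0.07 for Mmp2 (-0.54 to 0.41) and 0.01 for Mmp9 (-0.30 to 0.33). Mmp14 (0.01, -0.21 to 0.22) and Adam17 (0.06, -0.11 to 0.22) had narrower intervals. A p that misses the threshold does not show that a gene was unaffected, and the interval of Timp3 (-0.87 to 0.80) leaves room for a change of either sign.

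Whether progesterone acted differently at the 2 times was tested as an interaction over all 16 arrays, and 0 of 44 members passed, beside 0.00594% of all probes. The unadjusted p was under 0.05 for 3 members by limma, and for 4.15% of all probes: Mmp23 (-0.36, p 0.00636), Adam8 (0.23, p 0.0278) and Timp1 (-0.34, p 0.0389). All had an adjusted p of 0.999. By a second Timp1 probe the progesterone difference was 0.04 at 20 min and -0.14 at 2 h, beside 0.14 and -0.20 by the brightest.

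**Figure D5:**
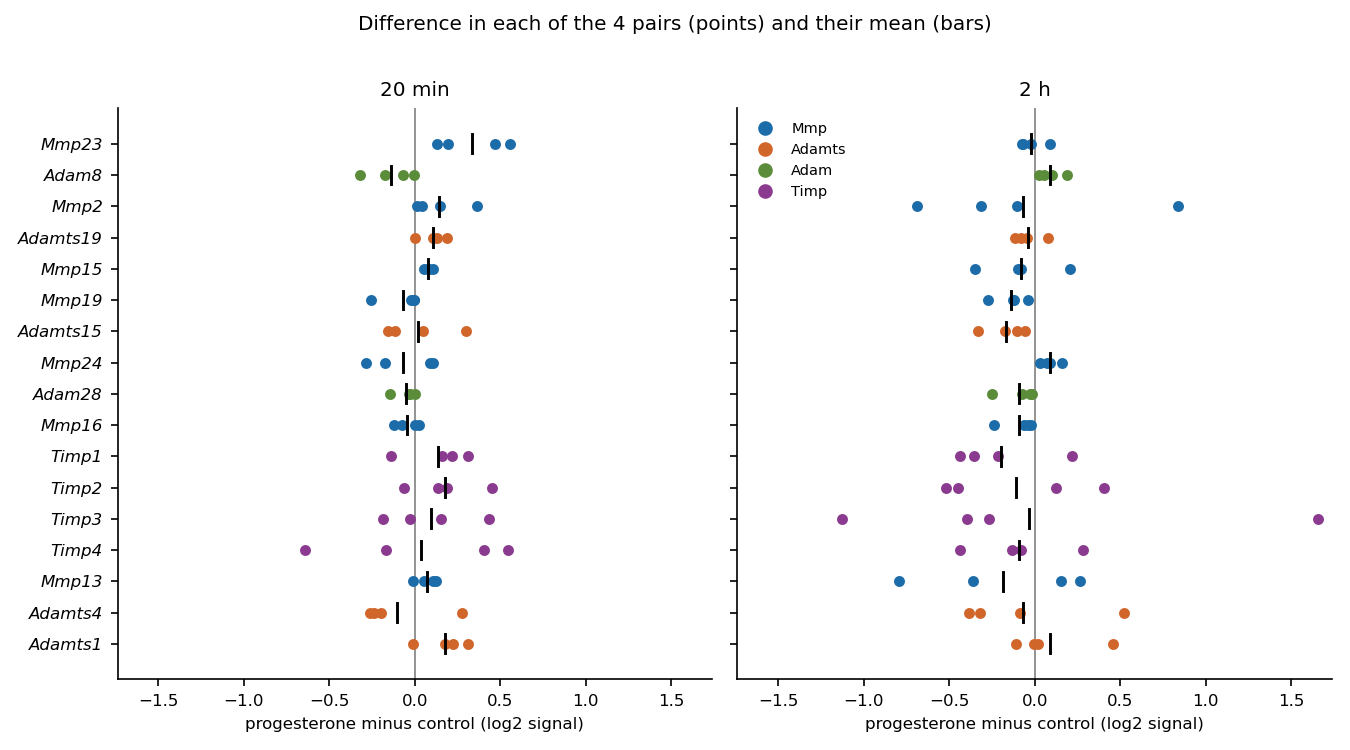
Points give the difference in log2 signal between the progesterone and the control sample of each of the 4 pairs at 20 min (left) and 2 h (right), and black bars give their mean, with the family as colour. Genes are those named by smallest p at either time, the 4 Timps, Mmp13, Adamts4 and Adamts1. All 4 points of Mmp23 lie right of 0 at 20 min and around 0 at 2 h, and the points of Timp3 spread from -1.13 to 1.66 at 2 h.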

How the data were processed

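The authors deposited, for 16 Illumina MouseRef-8 v2 arrays, the signal intensity of each probe as summarized by GenomeStudio V2011.1, without background subtraction or normalization, and a detection p-value. Array columns were matched to samples by their labels, and 0 columns were left over. The intensity values were quantile-normalized and put on a log2 scale, probes with a detection p-value under 0.5 on at least 13 of 16 arrays were kept (16848), and the tests were limma 3.58.1 (R 4.3.3, lmFit and eBayes; pairs were blocks in the progesterone fits) with Benjamini-Hochberg adjustment over all kept probes. Calls needed an adjusted p of at most 0.20 for progesterone and 0.05 for time. The scripts were tested on simulated data. Plots used matplotlib 3.10.9 under Python 3.11.15. Arrays have no read depth, so the number of arrays limits precision.

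The members, lists and tests were chosen with earlier results of these data known. Genes named were the members called over time, up to 6 with the smallest p among those with the same sign in 4 of 4 pairs at each progesterone time, and a list of well-known family members. Same-coded samples deviated together at 20 min (mean correlation 0.45, lowest 0.35). At 2 h the mean was 0.29 and the lowest 0.00, so there the pairing rests on the codes and on the study's statement of paired samples. The sources give the number of tubes per sample but not clearly from how many mice. Alternatives were other scalings, normexp background correction (neqc), other filters and thresholds, paired SAM, fits without the pair block and omission of each pair.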

Additional observations from a re-analysis of the deposited data

Results flagged for a closer look

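Among the named members, 23 genes in 4 groups of 4 arrays gave 92 sets of values, and in 4 of them a single array stood apart from the remaining 3. About 4.6 such sets arise by chance. In the control of 6d at 2 h, Timp2 had a log2 signal of 11.15 (next 10.60) and Adamts1 8.08 (next 7.53). In the progesterone sample of 22ob at 20 min, Mmp13 had 7.44 (next 7.26). In that of 26n at 20 min, Adamts19 had 7.20 (next 7.05). By its brightest probe, Adam8 was lower with progesterone in all 4 pairs of 20 min and higher in all 4 of 2 h. A second Adam8 probe, also detected on all 16 arrays, had -0.02 at 20 min, lower in 2 of 4 pairs, and 0.13 at 2 h, higher in 4 of 4. For the brightest probe the difference between these effects was 0.23 on the log2 scale, with an adjusted p of 0.999 by limma, so it did not pass.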

How the results depend on the processing

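Timp1, Mmp13, Adamts4 and Mmp11 were called over time, in both treatments together and in each alone, under all alternatives run. No called member reversed its sign. The number of members called over both treatments, 6 in the report, was 18 without normalization, 12 after median scaling, 17 at an adjusted p of at most 0.20, 10 with the pair as a random replicate block over 16 arrays, and 4 to 10 when 1 pair was left out, the 10 being without 6d. In controls it was 4, with 7 without normalization, 9 at 0.20, and 4 to 6 without 1 pair. In progesterone samples it was 5, with 18 without normalization, 14 after median scaling, 17 at 0.20, and 5 to 8 without 1 pair, the 8 being without 6d. Without normalization the median of all probes moved by -0.20 over time, and by 0.13 for progesterone at 20 min. Mmp3 was not called without a filter (adjusted p 0.0627). For progesterone, 0 members were called at either time, or in the interaction, under every alternative, also without the pair as a replicate block (0 members in each). The number of member genes detected on all arrays, 23, became 22 at a detection p-value under 0.01 and 33 at 0.5. The uncalled members near 0 changed sign under some settings. Signals near background limit the size of the changes of Mmp13, Mmp3, Mmp11 and Adamts15, and 4 pools per group limit what could be seen of progesterone.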
